A study of Homo sapiens with 2 samples.

Results

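PAX5 peaks at 3 genes of early B-cell development, EBF1, TCF3 and FOXO1, were taken from a genome-wide map of PAX5 binding in NALM6 cells, a human line established from a B-cell precursor leukaemia. A peak was counted for a gene when its summit lay inside the gene's window on hg19 or within 10 kb on either side. This gave 31 of the 21361 peaks of the map. The EBF1 window (chromosome 5, 158.123 to 158.527 Mb) held 14, the TCF3 window (chromosome 19, 1.609 to 1.653 Mb) 8 and the FOXO1 window (chromosome 13, 41.13 to 41.241 Mb) 9. The genes were chosen by name and position, with earlier results on these peaks known.

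PAX5, a transcription factor with a paired domain, commits progenitors to the B lineage and keeps them there. TCF3 encodes E proteins of the basic helix-loop-helix family, which bind E-boxes and start the B-cell programme. EBF1 is a zinc-coordinating helix-loop-helix factor that opens chromatin at B-lineage genes, and FOXO1 is a forkhead factor that AKT signalling keeps out of the nucleus. In B-cell progenitors TCF3 and FOXO1 are known to act upstream of EBF1, and EBF1 and PAX5 are known to sustain each other's expression.

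The study holds 1 ChIP sample and 1 input control. The file headers name a pooled ChIP and a combined control, and the number of pooled libraries is not stated. The antibody of the ChIP was an Abcam product against PAX5, and the control had none. Both are labelled as NALM6, without treatment, and the growth protocol gives 4 days of culture in RPMI lacking phenol red, with 10% serum and 2 mM glutamine. RXL, a name in the title of the control, and a time of 0 h in the header name of the ChIP alignment are not explained in the sources used here. Every fold, control background and ratio below rests on this control being matched to the ChIP. The study lists no replicate, so no difference between samples was tested. Intervals of reads, single folds, ratios and densities below cover counting error only. Those of medians and shares treat the peaks as independent draws, and peaks are not replicates. The peak list holds no expression values, so the identity of the cells was not checked against markers. The ChIP alignment held 46190180 tags and the control 25416858.

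Each peak below is described by the ChIP reads over its summit, the control background at the same place in extended reads, and the fold enrichment. The fold is the authors' deposited ratio of ChIP signal, scaled to the depth of the control, to that background. All 3 genes lie on the minus strand, so the start site is at the high coordinate. The start site is taken as that border of the window. Window borders are known to 1 kb, which leaves a margin of 0.5 kb on every distance from that border. At EBF1 the RefSeq promoter table places the start 1.96 kb inside the gene's outer end, so the position of the EBF1 start is less certain than this margin. Whether a summit lies in an exon or an intron was not determined, since no hg19 annotation was used.

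A PAX5 peak lay within that margin of the border taken as the start at TCF3 and at EBF1. TCF3 alone is shown as sequence, because the RefSeq promoter table places the start of EBF1 1.96 kb inside the gene's outer end, away from that peak. The stretch is the 250 bases upstream of the start in RefSeq (GRCh38.p14, minus strand, chromosome 19 from 1652616 to 1652865), written 5′ to 3′ with every CpG in capitals. The peaks are on hg19, and the letters were not laid over the peak.
TCF3 promoter: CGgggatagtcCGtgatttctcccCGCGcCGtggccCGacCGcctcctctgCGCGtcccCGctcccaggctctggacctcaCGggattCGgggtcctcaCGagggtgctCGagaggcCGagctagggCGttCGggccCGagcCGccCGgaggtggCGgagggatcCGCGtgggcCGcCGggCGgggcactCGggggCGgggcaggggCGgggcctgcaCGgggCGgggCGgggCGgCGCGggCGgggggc

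This stretch held 36 CpG dinucleotides, more than 95.1% of 35116 RefSeq promoters of the same length, whose median was 11. Of its bases 79.6% were G or C, against a median of 58%. The FOXO1 promoter held 27 CpGs, more than 82.3% of promoters, and 67.2% G or C. The stretch before the EBF1 start of the table held 6 CpGs, more than 38.1% of promoters, and 57.2% G or C. GCGTGAC, a short core of the PAX5 paired-domain site, was searched on both strands and had no match in any of the 3 stretches. It occurs in 2.20% of all promoters. The palindromic EBF1 consensus (1.06% of promoters) and the FOXO motif GTAAACA (2.98%) also had no match in them on either strand. The E-box CANNTG, which reads the same on both strands and occurs in 61.8% of promoters, was found at 2 places in the EBF1 stretch and at none in those of TCF3 and FOXO1. No motif match overlapped another. The sequences under the peaks were not searched, and FOXO1 had no peak at its start position. The motif counts therefore do not describe the bound sites.

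**Figure D1:**
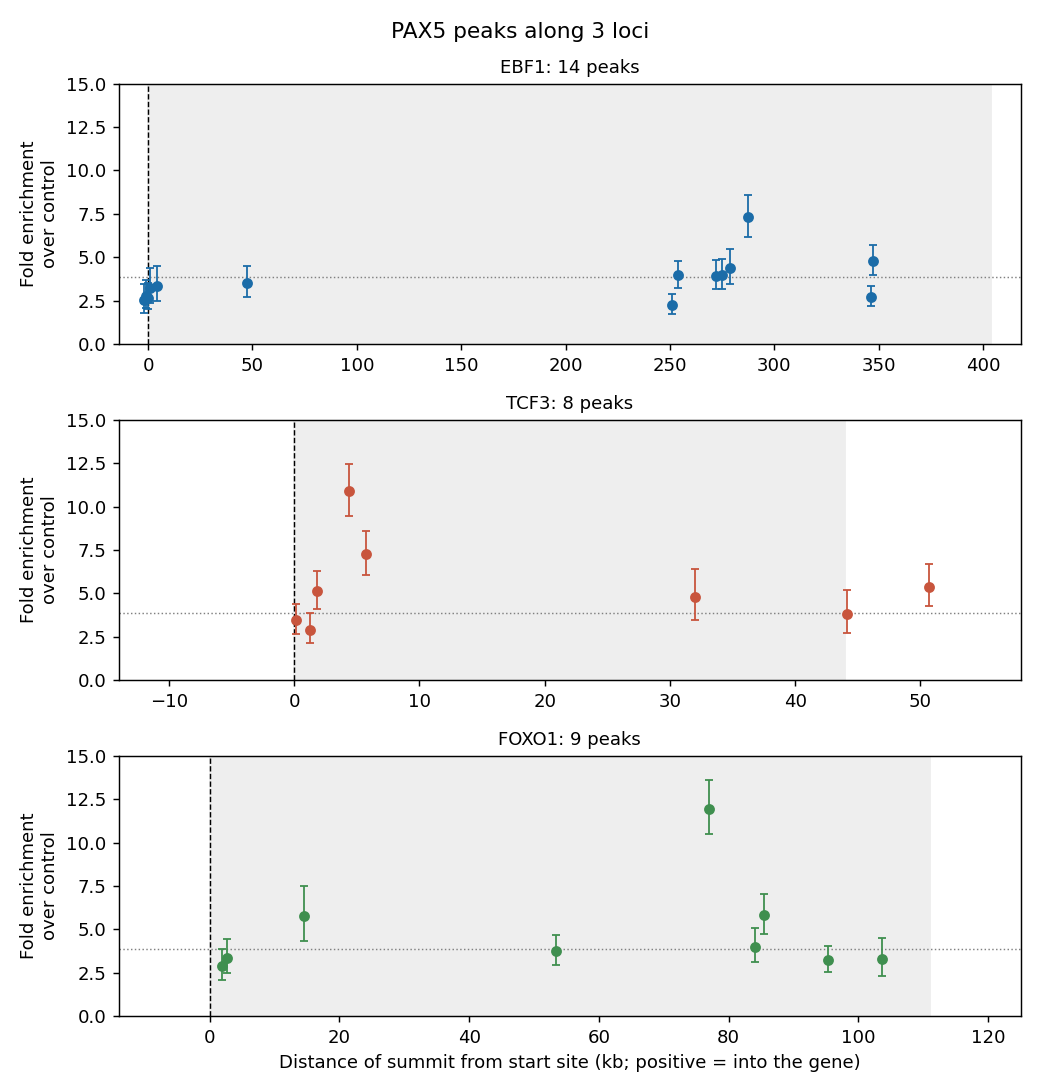
Fold enrichment of the 31 peaks (y axis, authors' deposited ratio) against the distance of the summit from the start site (x axis, kb, own scale for each gene). Error bars are 95% intervals from the ChIP count with the background taken as fixed, grey areas span the gene and the dotted line is the median of all peaks, 3.89. The highest peak lies 4.4 kb into TCF3 but 287 kb into EBF1 and 77.0 kb into FOXO1.

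At EBF1, PAX5 binding was found at the start of the gene and in its far part, with a long stretch without peaks between. The strongest site, on chromosome 5 from 158239195 to 158239807, lay 287 kb into the gene. There 149 ChIP reads (exact Poisson 95% interval 126 to 175) were counted against 10.4 control reads, and the fold was 7.31. This was the only EBF1 peak of the 14 to reach a fold of 5, a level that 25% of all peaks reached, and it ranked 1425th of 21361 by fold. It opened a run of 4 peaks within 15.7 kb, the others of which had folds of 4.39, 3.98 and 3.94, with 78, 85 and 84 ChIP reads over 9.0, 11 and 11 control reads. The intervals of these 3 counts, 61.7 to 97.3, 67.9 to 105 and 67.0 to 104, overlapped each other and stayed below that of the strongest site.

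A pair of peaks followed toward the start, of which that from 158272802 to 158273476 had 99 ChIP reads over 13 control reads and a fold of 3.96. The other, from 158275755 to 158276003, had 64 ChIP reads over 15 control reads and the lowest fold of all 31 peaks, 2.26. Farthest into the gene, at 347 kb, lay the peak from 158179342 to 158179794 with 120 ChIP reads over 13 control reads. Its fold was 4.79, the second highest at EBF1. A weaker neighbour 1.0 kb away had 82 reads over 16 control reads and a fold of 2.71. Of these 2 distal peaks the weaker in ChIP reads was the higher in the control.

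No peak was called over the 204 kb between the summits at 251 kb and 47.2 kb from the start. The peak at 47.2 kb stood alone, with its nearest neighbour 42.9 kb away. It had 59 ChIP reads over 8.55 control reads and a fold of 3.50.

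The EBF1 start carried 5 weak peaks within 6.46 kb. From 4.35 kb inside the gene to 1.96 kb upstream they had 42, 40, 49, 44 and 35 ChIP reads over 6.16, 6.10, 9.45, 8.0 and 7.0 control reads. Their folds lay between 2.53 and 3.37, all under the median of all peaks. The peak nearest to the border taken as the start, from 158526955 to 158527273, lay 0.181 kb from it. The side of the border on which it lies is not resolved by the 0.5 kb margin. Distances from the RefSeq start, 1.96 kb inside the gene's outer end, were not computed. This nearest peak had a fold of 2.68, with a 95% interval of 2.00 to 3.51 when the background is taken as fixed. None of these 5 peaks reached the read count of any of the 9 other EBF1 peaks, which ranged from 59 to 149. The control background moved in the same direction, with a median of 7.0 reads at the start cluster and 11 elsewhere. These backgrounds come from windows of different size, and the part of the control in the lower read counts was not tested. In fold the 2 sets overlapped, since the other peaks ranged from 2.26 to 7.31. In the RefSeq gene order, the long noncoding gene LINC02202 has its near edge 0.567 kb beyond the outer end of EBF1 (GRCh38.p14), so the peaks upstream of EBF1 are close to both genes.

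At TCF3 the strongest binding was found a few kb inside the start. The top peak, on chromosome 19 from 1648107 to 1649395, lay 4.41 kb into the gene. There 205 ChIP reads (178 to 235) were counted against 9.45 control reads. The fold was 10.9, which ranked 227th of 21361. The peak beside it, from 1646721 to 1648031, was separated by 75 bp and had 127 ChIP reads (106 to 151) over 8.77 control reads, a fold of 7.25. The ChIP counts of these 2 peaks did not overlap in their intervals, while their control backgrounds were nearly equal.

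Closer to the start, the peak from 1650434 to 1651623 had 89 ChIP reads over 8.77 control reads and a fold of 5.11. A narrow peak 78 bp beyond it, from 1651702 to 1651929, had 45 reads over 7.87 control reads and a fold of 2.90. At the start itself, the peak from 1652685 to 1652918 lay 0.155 kb from the start position, within the margin. It had 65 ChIP reads (50.2 to 82.8) over 9.68 control reads and a fold of 3.44. This count interval overlapped that of the peak of fold 5.11 (71.5 to 109.5) and lay below those of the top 2 peaks. These 5 peaks together spanned 6.20 kb, of which 68.6% was called as enriched, and held 77.7% of the summit reads summed over the 8 TCF3 peaks.

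The 3 strongest of them were 1311, 1289 and 1190 bp wide. Peaks of at least 1000 bp made up 3.22% of the whole list. They were 3 of the 8 TCF3 peaks and none of the 23 at EBF1 and FOXO1, where the widest were 864 and 776 bp.

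Away from the start, TCF3 had 1 peak deep inside the gene and 2 around its end. The peak from 1620875 to 1621197, 32.0 kb from the start, had 40 ChIP reads over 3.82 control reads, the lowest background of all 31, and a fold of 4.77. The peak from 1608609 to 1609040 lay at the end of the gene within the margin, with 36 reads over 4.50 control reads and a fold of 3.78. The peak from 1602104 to 1602511 lay 6.67 kb past the end, with 76 reads over 7.0 control reads and a fold of 5.35. The next gene on that side in the RefSeq order is UQCR11, a subunit gene of a mitochondrial respiratory complex, whose near edge lies 3.83 kb from TCF3 (GRCh38.p14). By these distances this last peak lies beyond the near edge of UQCR11. It entered through the flank of 10 kb and may belong to UQCR11, and its gene was not assigned. It is counted with the TCF3 window throughout.

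**Figure D2:**
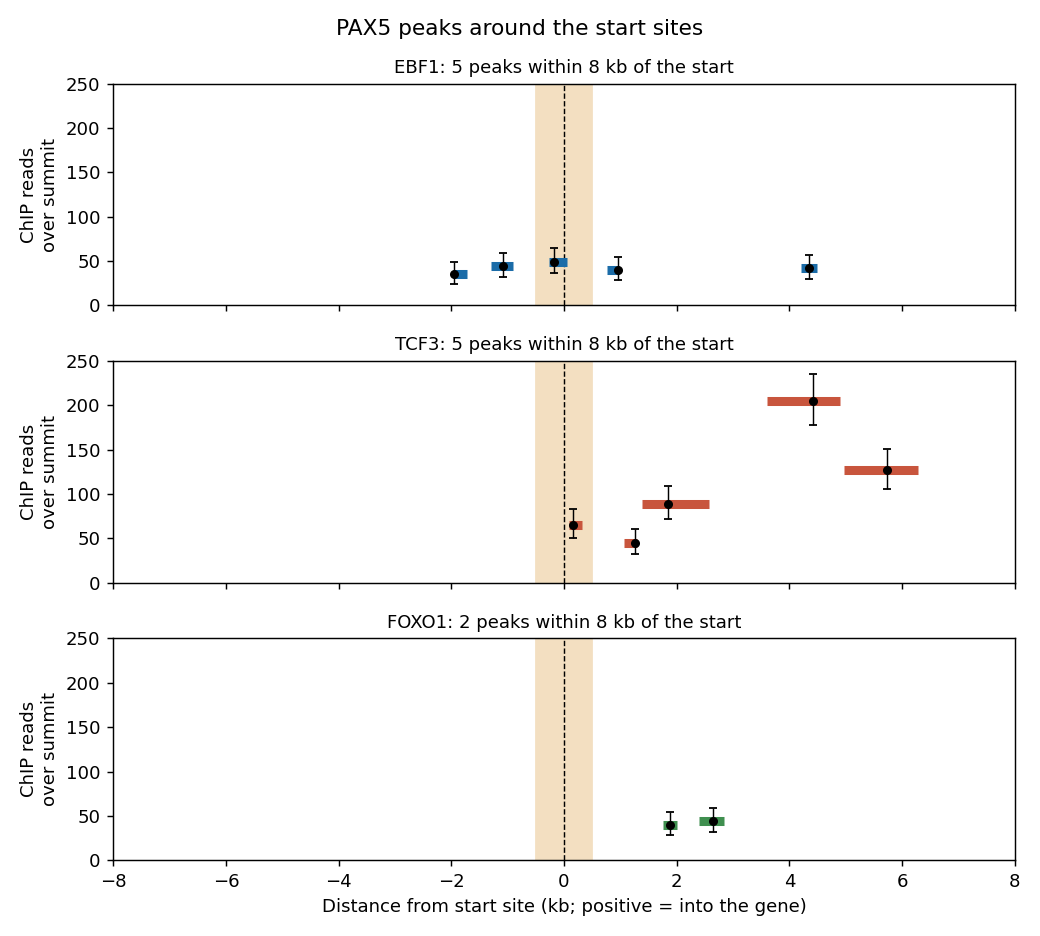
ChIP reads over the summit (y axis) of the peaks within 8 kb of each start site (x axis, kb). Coloured bars show each peak's extent, black points its summit with the exact Poisson 95% interval, and the shaded band the 0.5 kb margin of the start position. TCF3 rises to 205 reads at 4.41 kb, whereas the 5 EBF1 peaks stay between 35 and 49 and the 2 FOXO1 peaks have 44 and 40.

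FOXO1 held the site with the most ChIP reads and the highest fold of the 3 genes by point value, far from the start. On chromosome 13 from 41163742 to 41164517, 77.0 kb into the gene, 230 ChIP reads (201 to 262) were counted against 9.67 control reads. The fold was 11.9, which ranked 133rd of 21361 by fold, 79th by −log10 q and 80th by reads. With the TCF3 top peak it was 1 of the 2 of 31 with a fold of at least 10, against 1.72% of all peaks.

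This site closed a run of 5 peaks over 27.3 kb, between 77.0 and 104 kb from the start, which held 71.2% of the summit reads summed over the 9 FOXO1 peaks. Next in the run, from 41155240 to 41155715, came a peak with 99 ChIP reads (80.5 to 121) over 8.55 control reads and a fold of 5.81. Its neighbour 1.37 kb away, from 41156718 to 41157058, had 66 reads over 8.33 control reads and a fold of 4.00. The last 2 of the run, 95.3 and 104 kb from the start, had 75 and 34 reads over 12 and 5.0 control reads. Their folds were nearly equal, 3.25 and 3.28, although their read counts differed, since the background differed in step.

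Between the run and the start, the peak from 41187585 to 41187841 had 69 ChIP reads over 9.45 control reads and a fold of 3.73. The peak from 41226365 to 41226802, 14.5 kb from the start, had 51 ChIP reads (38.0 to 67.1) over 4.05 control reads and a fold of 5.76. It had rank 3 by fold at FOXO1 and rank 6 by reads, and its control background was the lowest of the 9. Near the start lay 2 weak peaks, 2.64 and 1.88 kb inside the gene, with 44 and 40 reads over 6.52 and 7.0 control reads and folds of 3.35 and 2.88. No FOXO1 peak was called at the start position itself or upstream of it within the window.

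Across the 3 genes the top peaks stood over nearly equal control backgrounds, 10.4 reads at EBF1, 9.45 at TCF3 and 9.67 at FOXO1. In ChIP reads the order was FOXO1 with 230, TCF3 with 205 and EBF1 with 149. The intervals of FOXO1 and TCF3 overlapped, and that of EBF1 (126 to 175) lay just below that of TCF3 (178 to 235). The counting error of the control was then included. The scaled ratio of ChIP reads to control reads, without the pseudocount of the deposited fold, was 13.1 at FOXO1 (exact conditional 95% interval 9.41 to 18.6), 11.9 at TCF3 (8.53 to 17.1) and 7.92 at EBF1 (5.66 to 11.3). All 3 intervals overlapped. Within the genes, the same interval of the second peak by fold reached that of the first at EBF1 (2.86 to 9.82), TCF3 (5.52 to 11.7) and FOXO1 (4.34 to 9.52). At FOXO1 the shared part was narrow, from 9.41 to 9.52. The difference between the first and second peak of each gene was not tested.

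**Figure D3:**
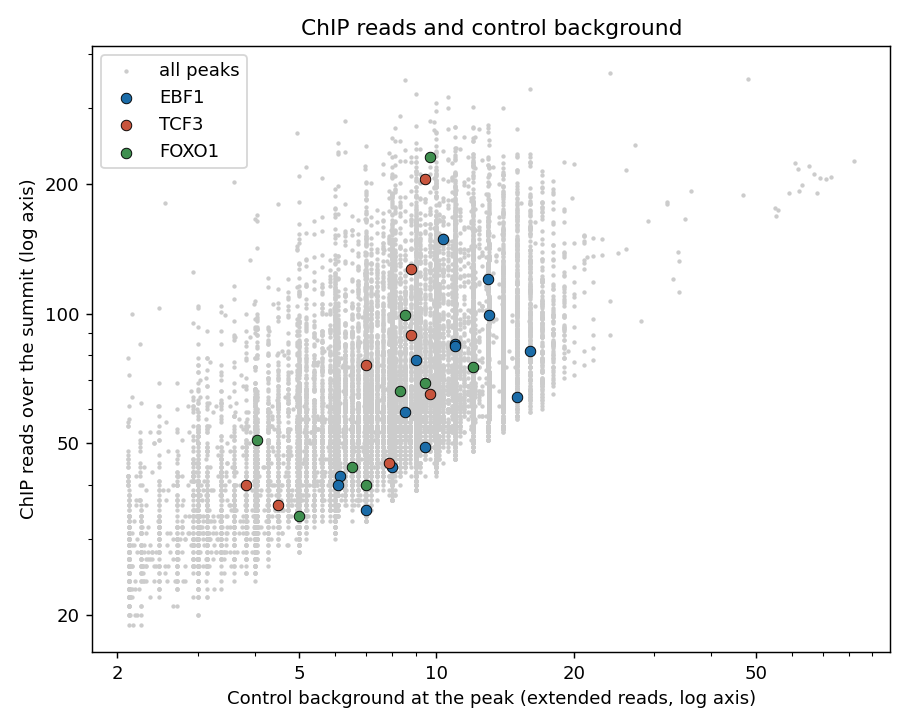
ChIP reads over the summit (y axis, log) against control background (x axis, extended reads, log) for all 21361 peaks in grey and the 31 peaks of the 3 genes in colour. The 3 top peaks, with 230, 205 and 149 reads, sit at backgrounds between 9.45 and 10.4 reads, and the lower edge of the grey cloud is set by the calling threshold.

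As a group, the 31 peaks had folds like those of the whole list. Their median fold was 3.78 (95% order-statistic interval 3.28 to 4.77), against 3.89 over all peaks. The median was 3.43 (2.68 to 4.39) at EBF1, 4.94 (2.90 to 10.9) at TCF3 and 3.73 (3.25 to 5.81) at FOXO1, with overlapping intervals. These intervals reflect the spread between peaks, and that of TCF3 runs from the lowest to the highest of its 8 peaks. A fold of at least 5 was reached by 8 of the 31 (25.8%, exact binomial 95% interval 11.9 to 44.6), close to the 25% of all peaks. Of these, 1 was at EBF1 (7.14% of its peaks), 4 at TCF3 (50%) and 3 at FOXO1 (33.3%). The TCF3 count includes the peak past the gene's end. The pooled share thus averages unlike genes, and was 41.2% without EBF1, 17.4% without TCF3 and 22.7% without FOXO1. The median summit held 66 ChIP reads, against 61 over all peaks, and the median control background was 8.77 reads, against 8.0. At the stricter −log10 q of 5, which 72.7% of all peaks reached, 20 of the 31 remained, of which 8 were at EBF1, 6 at TCF3 and 6 at FOXO1. The 11 others included all 5 peaks of the EBF1 start and both FOXO1 peaks near the start. The rest were the EBF1 peak of fold 2.26, the TCF3 peaks of fold 2.90 and 3.78, and the FOXO1 peak 104 kb from the start.

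The number of peaks in each window, rather than their fold, stood above the rest of its chromosome, a span that includes long stretches without peaks. EBF1 had 33.0 peaks per Mb (exact Poisson 95% interval 18.1 to 55.4), against 5.06 over the rest of chromosome 5, a ratio of 6.53 (3.57 to 11.0). TCF3 had 125 peaks per Mb (54.0 to 246), against 20.1 over the rest of chromosome 19, a ratio of 6.22 (2.69 to 12.3). FOXO1 had 68.7 peaks per Mb (31.4 to 130.4), against 4.78 over the rest of chromosome 13, a ratio of 14.4 (6.57 to 27.3). The ratios of the 3 genes overlapped. With flanks of 100 kb in place of 10 kb the ratio was 4.91 at EBF1, 2.65 at TCF3 and 6.73 at FOXO1. Peaks lie close together along the genome, so these intervals, which treat them as independent, may be too narrow, and the genes were chosen with the peaks known. Windows of other genes were not compared, so the density is not shown to be particular to these 3.

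Each chromosome was also divided into consecutive windows of the same length as that of its gene. On chromosome 5, 5 of 425 such windows held at least the 14 peaks of EBF1, 199 held none, and the median window held 1. On chromosome 19, 19 of 919 windows of 64 kb held at least 8 peaks, and 474 held none. On chromosome 13, 3 of 728 windows of 131 kb held at least 9 peaks, and 511 held none. Within the windows, 27 of the 31 peaks had another summit within 10 kb, against 51.9% of all peaks. The exceptions were the EBF1 peak at 47.2 kb, the TCF3 peak at 32.0 kb, and the FOXO1 peaks at 53.3 and 14.5 kb from the start. This count is not independent of the peak density of the windows and was not tested apart from it.

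**Figure D4:**
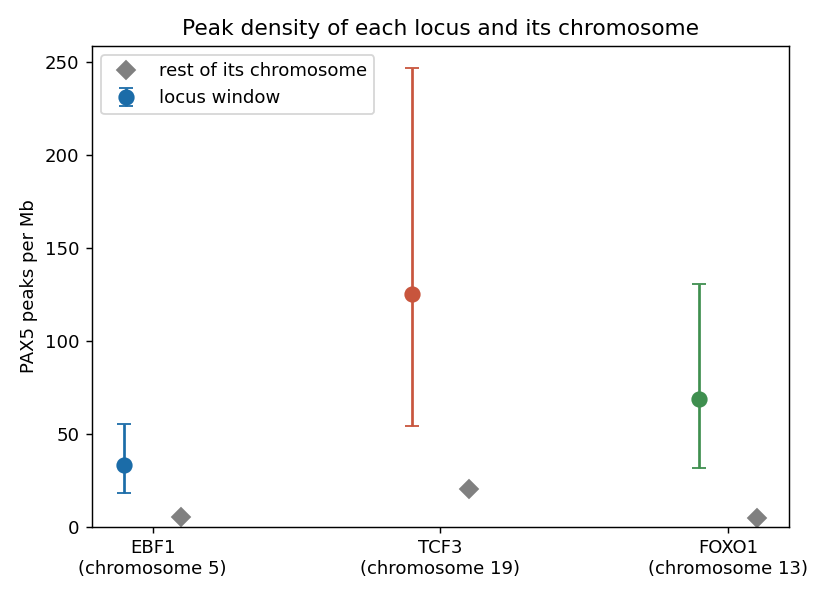
PAX5 peaks per Mb (y axis) in the window of each gene, with exact Poisson 95% intervals, and over the rest of its chromosome (grey diamonds). The windows reach 33.0, 125 and 68.7 peaks per Mb, all above their chromosomes at 5.06, 20.1 and 4.78.

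Within 5 kb of the start sites lay 11 of the 31 peaks, of which 5 were at EBF1, 4 at TCF3 and 2 at FOXO1. The share of all peaks this close to a start was not determined, since no hg19 annotation was used, so the count is not set against the rest of the map. At TCF3 the folds near the start ranged from 2.90 to 10.9 and those elsewhere from 3.78 to 7.25. The fold of 7.25 belongs to the peak beside the top peak, 5.74 kb from the start. Beyond 10 kb the TCF3 folds ranged from 3.78 to 5.35. At FOXO1 the 2 peaks near the start had folds of 2.88 and 3.35, and the 7 others ranged from 3.25 to 11.9. The strongest site was therefore near the start in 1 of the 3 genes and in the distal part in the other two, at 71.2% of the distance from start to end in EBF1 and 69.4% in FOXO1. All 31 peaks were listed with identical borders in the authors' cleaned list, as were 21351 of all 21361.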

How the data were processed

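PAX5 ChIP-seq and input control of NALM6 were used as 1 peak list. The submitters' processing notes name BWA and hg19. MACS2 2.1.1.20160309 was run on a pooled ChIP against a combined control, per the file headers, at a q-value of 0.05, with extension to 225 bp and 1 tag kept per position. The number of pooled libraries is not stated in the sources at hand. The pileup signal, the fold ratio and the −log10 p and q values are the authors' deposited values. The authors' second file gives positions after a cleaning step that no source at hand describes.

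ChIP reads were recovered as pileup divided by 0.550, the ratio of control to ChIP tags (100% whole within 0.005 pileup units), and control background from pileup and fold with a pseudocount of 1. The Poisson p recomputed from these differed from the deposited p by at most 0.05 on the log10 scale in 100% of peaks. The background is the largest of the genome mean and windows of 225, 1000 and 10000 bp. Its read count, needed for the 2-count intervals, was read from the window that gave a whole number, in that order, which left 1 of the 31 peaks with 2 possible windows. All intervals are at 95%.

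Members and lists were chosen with earlier results of these data known. In each window the named peaks were to be the 5 of highest fold, that nearest to the start and that with most reads, or all of up to 8, and other peaks named here were added to account for every peak. Alternatives covered flanks, merging, thresholds, rankings and start distances. Tools were scipy 1.17.1, numpy 2.4.6, pandas 2.3.3 and matplotlib 3.10.9 under Python 3.11.15, and the scripts were tested on simulated data. RefSeq sequences and gene order are on GRCh38.p14 and were not moved to hg19. All 3 genes matched by symbol.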

Additional observations from a re-analysis of the deposited data

How the results depend on the processing

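Of 62 alternative values, 55 stayed within 1.5 times the reported count or within the reported interval. This tally does not measure stability, since some of these values could hardly leave. The interval of the TCF3 median spans its lowest to highest peak, and the cleaned list keeps nearly every peak. The FOXO1 density ratio was counted as inside at any value from 6.57 to 27.3. With −log10 q of at least 5, EBF1 kept 8 of its 14 peaks. With flanks of 100 kb, the TCF3 count was 13 and its density ratio to chromosome 19 fell from 6.22 to 2.65 (1.41 to 4.54), since the wider window takes in more sequence of lower peak density. The FOXO1 ratio of 14.4 likewise fell to 6.73 (3.22 to 12.4), and with flanks of 50 kb the ratios were 8.91 at FOXO1 and 3.81 at TCF3. Against all autosomes the ratio was 9.15 at FOXO1 and 16.6 at TCF3, because chromosome 13 is sparse and chromosome 19 dense in peaks. Over the genome mean background of 2.12 reads in place of the local one, the median fold was 12.9 at EBF1, 12.8 at TCF3 and 12 at FOXO1, by construction higher. The strongest peak of each gene was the same under ranking by fold, −log10 q and reads. No paired analysis was possible because there is 1 sample a group. The ratio intervals of the 3 strongest sites overlapped, and the part of depth in this was not tested. With 1 ChIP alignment, named as pooled in its header, no spread between libraries can be given.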

Other observations

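Beyond the windows, the nearest PAX5 sites differed in distance. Upstream of EBF1 the next peak, on chromosome 5 from 159545810 to 159546077, lay 1019 kb from the start, with 44 ChIP reads and a fold of 2.70. On the other side a peak with 75 ChIP reads and a fold of 3.33 lay 18.9 kb past the end of EBF1, just outside the window. For FOXO1 the next peaks lay 104 kb upstream (fold 2.96) and 72.0 kb past the end (fold 3.29). TCF3 had its next peaks 14.8 kb upstream (fold 4.24) and 15.9 kb past the end (fold 3.92). Within 100 kb upstream of TCF3 were 2 peaks, the stronger with a fold of 8.62. The members closest to a window border were the TCF3 peak past the gene's end, 3.33 kb inside it with a fold of 5.35, and the EBF1 peak farthest upstream, 8.04 kb inside it with a fold of 2.53.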
